A study of Mus musculus with 4 samples.

Results

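Platelet-derived growth factors (PDGFs) are secreted dimers that bind a pair of receptor tyrosine kinases. The 6 genes described here were fixed by name, as 3 ligand genes (*Pdgfa*, *Pdgfb* and *Pdgfc*), both receptor genes (*Pdgfra* and *Pdgfrb*), and *Cspg4*, which encodes the proteoglycan NG2. They are 6 of 17419 genes listed in the normalized tables of the neural stem cell (NSC) lines. The normalized table of XN4 listed all 6, that of CN4 listed 4, and those of XN1 and KN1 listed 3 each. The read tables of XN4, XN1, and CN4 held all 6.

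The NSC lines were derived from epiblast stem cells (EpiSCs) of 129/Sv mice and kept in EGF and FGF2, each at 10 ng/ml. XN4 and XN1 were made with 10 µM XAV939, a tankyrase inhibitor that lowers Wnt signaling, obtained from different suppliers, and the XAV939 used for XN1 formed crystals in the medium. KN1 received neither Wnt drug, and CN4 received 2 µM CHIR99021, a GSK3 inhibitor that raises Wnt signaling. Each line was a separate culture, sampled once as 1 library on the BD Rhapsody system, in which mRNA of single cells is taken up by barcoded beads. The drug, the line, and the library therefore cannot be told apart, no test between lines was made, and intervals below are exact 95% intervals that cover counting error only. Where 0 cells had a read, the limit given is instead 3 cells of the total, and it limits the cells with a read, not the cells that express the gene.

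In the developing central nervous system, PDGFRα marks oligodendrocyte precursors, which also carry NG2 and divide in response to PDGF-A from neurons and astrocytes. PDGFRβ is characteristic of pericytes and smooth muscle of vessel walls, which follow PDGF-B released by endothelium and also carry NG2. Fibroblasts and other mesenchymal cells carry both receptors. PDGF-AA and PDGF-CC act mainly through PDGFRα, and PDGF-BB binds either receptor.

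A gene counted as captured where a cell had 1 read or more of it. Cell fractions are over all 8741 XN4, 14452 XN1, and 18157 CN4 cells of the read tables, with medians of 12615, 5981.5, and 9173 reads per cell, and over the 3975 KN1 cells of its normalized table, with a median of 5862. Levels in RPM, which are reads per 1000000 reads of a library, were taken from the normalized tables, in which ribosomal protein and mitochondrial genes were left out. The KN1 library stood apart, with a median of 833 genes per cell against 2259 to 2826.5 in the other normalized tables, and with 7.39 reads per captured gene and cell against 2.14 to 3.90. A gene in KN1 can thus be low in cell fraction and high in RPM, and no order is read where they go against each other. The intervals of levels and of their ratios take each read as independent, although reads of a gene came several to a cell. These intervals can therefore be too narrow even for counting error. From 37 to 320 cell indexes were shared by each pair of libraries, and without these cells the fractions of the members moved by at most 0.205 percentage points.

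The library labelled XN4 went against its cell type label in much of the neural progenitor list. Of the 10 genes of that list, 4 (*Nes*, *Msi1*, *Notch1*, and *Prom1*) were captured in at least 1% of XN4 cells, compared with 9 in XN1, 9 in KN1, and 10 in CN4. Their summed levels were 137 RPM in XN4 and 2267, 1654, and 6163 in XN1, KN1, and CN4. *Prom1*, which encodes prominin 1, went the other way against KN1 and CN4, at 1.40 and 1.58 times their levels. *Fabp7* and *Hes5* of neural progenitors had no read in 8741 cells, which allows a share of up to 0.0343%, and *Sox2* was captured in 0.561% of cells, compared with 63.5% in XN1, 13.9% in KN1, and 85.9% in CN4. *Olig1*, a transcription factor of the oligodendrocyte lineage, was likewise without a read in XN4, but was captured in 89.1% of XN1, 25.7% of KN1, and 88.1% of CN4 cells. *Col3a1*, a collagen of mesenchymal cells, was captured in 97.7% of XN4 cells and in 0.228%, 1.23%, and 1.04% of XN1, KN1, and CN4 cells. Every result on XN4 below stands beside these values, and their part in it was not tested.

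*Pdgfra*, the receptor for PDGF-A and PDGF-C, lies on chromosome 5 of GRCm38 from 75152292 to 75198215 (plus strand). It was captured in 4779 XN4 cells, or 54.7% (53.6% to 55.7%), in 1487 XN1 cells, or 10.3% (9.80% to 10.8%), and in 395 CN4 cells, or 2.18% (1.97% to 2.40%). KN1 had no entry for it, and no gene entered for KN1 had reads in fewer than 7 cells. The order XN4, XN1, CN4 was the same after each cell was thinned to 3200 reads, with fractions of 39.3%, 7.67%, and 0.918%. XN4 had a level of 246 RPM (241 to 250), XN1 of 33.2 (30.7 to 35.9), and CN4 of 4.53 (3.70 to 5.49), and none of these intervals overlapped. The XN4 level was 7.39 times that of XN1 (6.82 to 8.01), and the XN1 level was 7.34 times that of CN4 (5.96 to 9.12).

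The lines also differed in the number of *Pdgfra* reads in a cell. In XN4, 659 cells (7.54%) had 10 or more reads and held 42.2% of all *Pdgfra* reads, and the highest cell had 64. Only 3 cells of XN1 and 4 of CN4 had 10 or more reads of *Pdgfra*, and 63.3% and 65.3% of their positive cells had a single read. When the cells of a line were put into 5 equal groups by total reads, the share with *Pdgfra* in XN4 was 30.8% in the group with the fewest reads and 78.4% in that with the most. Between the same groups it went from 8.06% to 13.3% in XN1, and from 1.76% to 3.002% in CN4, so the deepest CN4 cells remained below the shallowest XN1 cells.

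Promoter sequences from RefSeq (GRCm38.p6) were matched for 4 of the 6 genes, and those of *Pdgfra* and *Pdgfc* are printed because the levels of these genes were furthest apart between the lines among those with a sequence. Each run is the 250 bases before the start, read 5′ to 3′ on the strand of the gene, at chr5:75152001-75152250 and chr3:81036166-81036415 (both plus strand).
Pdgfra: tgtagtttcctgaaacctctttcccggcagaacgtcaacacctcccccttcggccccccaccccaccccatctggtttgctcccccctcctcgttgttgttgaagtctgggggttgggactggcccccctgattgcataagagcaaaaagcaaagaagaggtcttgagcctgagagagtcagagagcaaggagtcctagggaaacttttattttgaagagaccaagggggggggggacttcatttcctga
Pdgfc: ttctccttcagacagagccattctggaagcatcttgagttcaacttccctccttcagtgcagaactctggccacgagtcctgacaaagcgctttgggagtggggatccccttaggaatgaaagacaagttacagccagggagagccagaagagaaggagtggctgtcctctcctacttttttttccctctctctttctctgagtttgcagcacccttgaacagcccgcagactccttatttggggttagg

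Capitals would mark a motif, and these windows held none of the 4 that were searched on both strands. The TATA box, searched as TATAAA, was found in 12.4% of the 32851 windows of the same length, and the GC box, searched as GGGCGG, in 32.7%. The letters bound by TCF and LEF factors (CTTTGAT) were found in 3.21% and those bound by SOX factors (AACAAT) in 9.42%. That no match was found says only that these letters were not in these windows. The windows of *Pdgfra* and *Pdgfc* held 4 and 3 CpG dinucleotides, below the median of 6 over all windows. The window before the upstream start of *Pdgfa* differed, with 28 CpG dinucleotides, 72.4% G and C, and the GC box at 2 places, and it is not printed because it overlaps an annotated exon. The window before the other *Pdgfa* start held 19 CpG dinucleotides and the GC box at 1 place. That of *Cspg4* held 12 CpG dinucleotides and the GC box at 2 places.

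**Figure D1:**
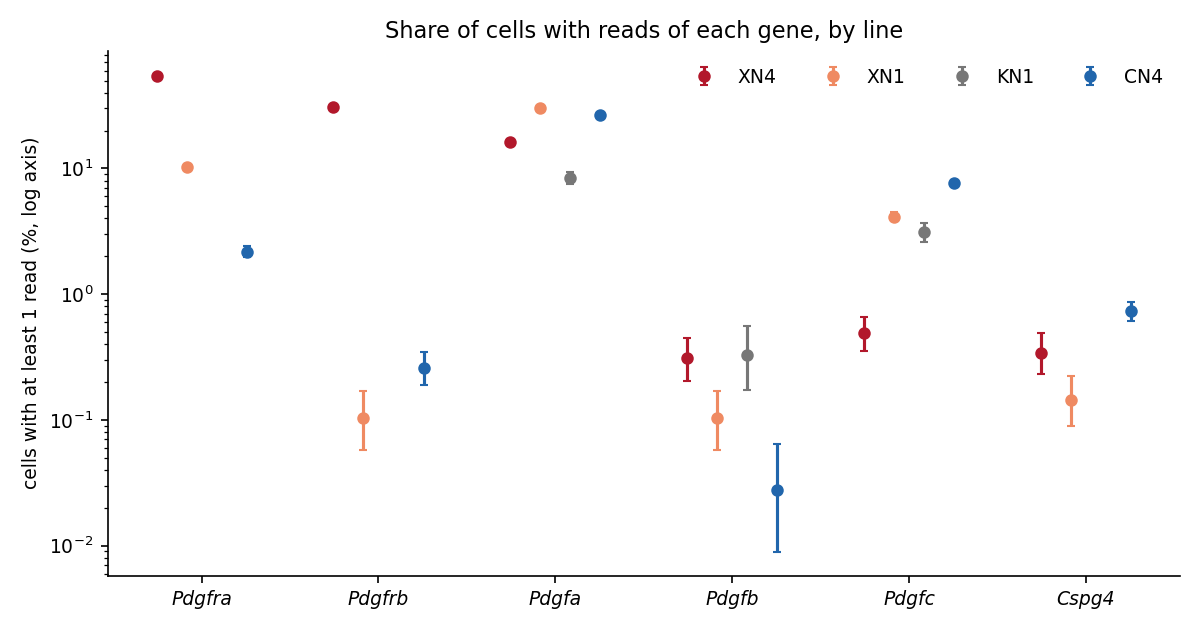
Share of cells with at least 1 read of each gene (percent, log axis) in the XN4, XN1, KN1, and CN4 libraries, with exact 95% binomial intervals. *Pdgfra* and *Pdgfrb* are highest in XN4, *Pdgfc* is lowest there at 0.492%, and genes not listed in KN1 have no point. Compare lines within a gene, as genes differ in length and capture.

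*Pdgfrb*, the receptor for PDGF-B, lies on chromosome 18 from 61045150 to 61085061 (plus strand). It was captured in 2716 XN4 cells, or 31.1% (30.1% to 32.1%), but in 15 XN1 cells, or 0.104% (0.0581% to 0.171%), and 47 CN4 cells, or 0.259% (0.190% to 0.344%). It was not listed in KN1. The XN4 level of 72.6 RPM was 98.1 times the CN4 level of 0.740 (61.2 to 169), which rests on 17 reads. Against XN1, where 3 reads were found in the cells of the normalized table, the ratio was 467 with a counting interval of 160 to 2265. With all reads of all cells the levels were 50.5 RPM in XN4 and 0.204 in XN1, which gives a smaller ratio. With both receptors counted, 65.9% of XN4 cells, 10.4% of XN1 cells, and 2.34% of CN4 cells had reads of at least 1 receptor.

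*Pdgfa*, the ligand of oligodendrocyte precursors, lies on chromosome 5 from 138976014 to 138997370 (minus strand), and was the member with the most even levels across the lines. It was captured in 1428 XN4 cells, or 16.3% (15.6% to 17.1%), in 4406 XN1 cells, or 30.5% (29.7% to 31.2%), in 334 KN1 cells, or 8.40% (7.56% to 9.31%), and in 4823 CN4 cells, or 26.6% (25.9% to 27.2%). XN4 had 47.4 RPM (45.3 to 49.5), XN1 had 99.4 (94.96 to 103.9), KN1 had 65.0 (62.0 to 68.1), and CN4 had 61.6 (58.5 to 64.9). XN1 was highest by both measures and 2.10 times XN4 (1.97 to 2.23). KN1 and CN4 were neighbors in level, at a ratio of 1.054 with an interval of 0.983 to 1.13. In KN1, 56 cells with 10 or more *Pdgfa* reads held 40.5% of them, and in XN4, 91 such cells held 28.4%. Positive KN1 cells had 5.36 *Pdgfa* reads on average, below the 7.39 over all captured genes of the same cells. Among all XN4 cells, positive cells had 3.59 on average, against 3.90 over all captured genes of the normalized XN4 cells. The normalized XN4 cells alone had 1972 *Pdgfa* reads in 606 positive cells, which is also below 3.90 per cell. This concentration is therefore not read as a trait of *Pdgfa*.

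*Pdgfc*, whose product is a ligand of PDGFRα that is cut by plasmin or tissue plasminogen activator before it binds, lies on chromosome 3 from 81036416 to 81214040 (plus strand). It was lowest in XN4, the line highest in the receptors. It was captured in 43 XN4 cells, or 0.492% (0.356% to 0.662%), in 598 XN1 cells, or 4.14% (3.82% to 4.48%), in 124 KN1 cells, or 3.12% (2.60% to 3.71%), and in 1384 CN4 cells, or 7.62% (7.24% to 8.02%). The levels were 0.577, 10.2, 26.6, and 13.5 RPM in XN4, XN1, KN1, and CN4. The level of XN1 was 17.6 times that of XN4 (11.5 to 28.2), that of CN4 was 23.3 times (15.4 to 37.0), and that of KN1 was 46.2 times (30.8 to 72.5). As the XN4 fraction could not be told from background, as given below, these are ratios of measured levels and give no fold of expression. KN1 was 2.62 times XN1 in RPM (2.24 to 3.08), but after thinning the fractions were 2.71% in both, so no order is read between them.

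*Pdgfb*, the ligand of mural cells, lies on chromosome 15 from 79995874 to 80014977 (minus strand), and was rare in every library. It was captured in 27 XN4 cells (0.309%), 15 XN1 cells (0.104%), 13 KN1 cells (0.327%), and 5 CN4 cells (0.0275%). The highest level was 2.10 RPM in KN1 (1.60 to 2.72), where 2 cells with 10 or more reads held 50% of the reads and the mean over cells was 3.05. For scale, *Aif1*, *Tyrobp*, *Csf1r*, and *Ptprc* of microglia and blood cells, which the lines should lack, were captured in 3 to 75 XN4 cells (0.0343% to 0.858%), 2 to 7 XN1 cells (0.0138% to 0.0484%), and 1 to 15 CN4 cells (0.00551% to 0.0826%). *Cx3cr1*, the fifth gene of that list, was left out of these ranges after its values were seen, at 2.95%, 1.70%, and 2.35% of XN4, XN1, and CN4 cells. KN1 listed only *Ptprc* and *Cx3cr1* of these genes, with 16 and 75 reads against 58 of *Pdgfb*. Neither background nor expression is read from *Pdgfb* in KN1. The *Pdgfrb* fractions of XN1, where 80% of the 15 cells had a single read, and of CN4 were above these ranges and below *Cx3cr1*. The *Pdgfra* fraction of CN4 was also above the range and just below *Cx3cr1*, which had 3.53 RPM there, so the ratios over these levels are of measured levels with no background taken off. The fraction of *Pdgfb* in CN4 fell inside the range, so neither background nor expression is read from it, and that in XN1 was above the range. In XN4 the top of the range was *Aif1*, with 2 or more reads in 37 of its 75 cells, and *Csf1r* was next at 0.297%. The fractions of *Pdgfb* and *Pdgfc* in XN4 were between these, so neither background nor expression is read from them. Of the 43 XN4 cells with *Pdgfc*, 42 had a single read, while 2 cells with 10 or more reads held 29.9% of the *Pdgfb* reads.

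*Cspg4* lies on chromosome 9 from 56865033 to 56899870 (plus strand). It was captured in 133 CN4 cells, or 0.733% (0.614% to 0.868%), in 30 XN4 cells, or 0.343% (0.232% to 0.490%), and in 21 XN1 cells, or 0.145% (0.0900% to 0.222%), and it was not listed in KN1. The CN4 and XN1 fractions were above, and the XN4 fraction inside, the range of the 4 microglia and blood genes of the same library, and all 3 were below *Cx3cr1*. The levels were 1.26 RPM in CN4 (0.846 to 1.81), 0.519 in XN1 (0.249 to 0.954), and 0.408 in XN4 (0.238 to 0.654), and those of XN1 and XN4 were not told apart. Over all cells, CN4 thus had the highest *Cspg4* fraction and the lowest *Pdgfra* fraction of the 3 lines with a value, and no order is read between XN4 and XN1. After thinning, the *Cspg4* fractions rested on 11, 4, and 3 cells of CN4, XN4, and XN1, and their intervals overlapped. They were 0.348% (0.174% to 0.622%), 0.118% (0.0322% to 0.302%), and 0.0958% (0.0198% to 0.280%).

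Some reads may come from genes that overlap the members in the annotation, since reads in introns were counted and the use of strand is not given in the sources used here. *Pdgfa* is overlapped on the opposite strand by *6330403L08Rik*, which was captured in 3.80% of XN4, 3.20% of XN1, and 0.821% of CN4 cells. *Pdgfra*, *Pdgfb*, and *Pdgfc* also have opposite-strand neighbors in their span, with reads in at most 15 cells of a line, and *Pdgfrb* and *Cspg4* have none.

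**Figure D2:**
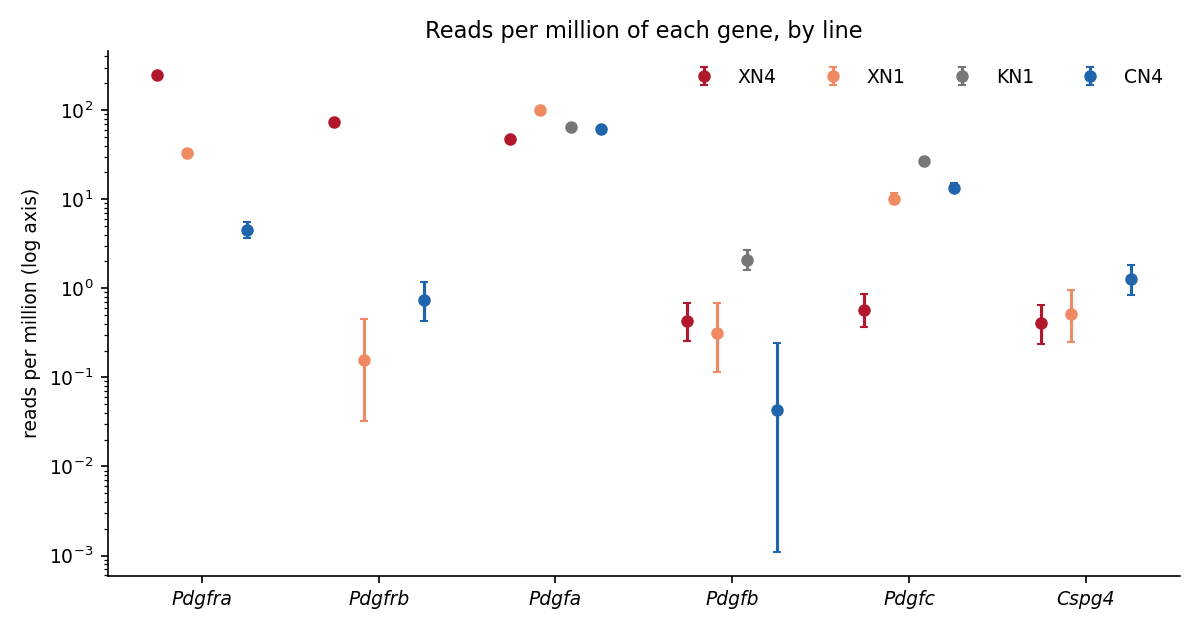
RPM of each gene (log axis) in the normalized cells of each library, with exact 95% Poisson intervals. *Pdgfa* stays between 47.4 and 99.4 in all 4 lines, while *Pdgfc* is above 10 in XN1, KN1, and CN4 and below 1 in XN4. The *Pdgfb* point of CN4 is 1 read. Compare lines within a gene only.

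Pairs of lines were compared over the genes seen in at least 1% of the cells of 1 of the 2 lines, with a call at a ratio of at least 4-fold in RPM and with counts under 3 reads set to 3. Over all genes, 17.7% of 13264 were called between XN4 and XN1, 19% of 13423 between XN4 and CN4, and 7.16% of 12518 between XN1 and CN4. *Pdgfra*, which passed the filter in each of these lines, was called as higher in XN4 in both of its pairs and as higher in XN1 than in CN4. *Pdgfa*, which also passed in each line, was not called in any pair. *Pdgfrb* passed through XN4 alone, where it was called as higher, and *Pdgfc* passed against XN4 only through the other line, where it was called as higher. A gene that enters only through the line where it is high is more likely to be called, so the number of members called is not read against the background. The 3 pairs with KN1 could test *Pdgfa* and *Pdgfc* alone, and the only call was *Pdgfc*, lower in XN4 and again admitted through KN1. The background was 19% of 12376 genes for XN4 against KN1, 18.1% of 12080 for XN1 against KN1, and 14% of 12213 for KN1 against CN4. *Pdgfb* and *Cspg4* were seen in under 1% of cells in every line and were not tested. The lines are shared between these pairs, so the calls are not independent of each other.

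**Figure D3:**
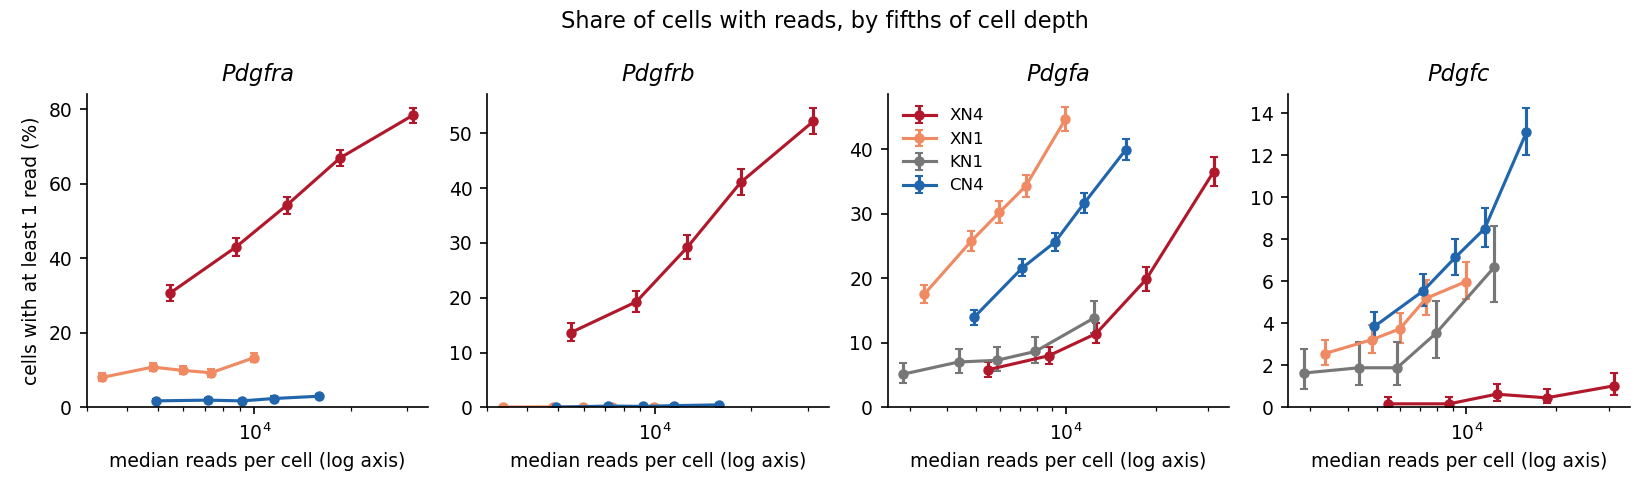
Share of cells with at least 1 read of *Pdgfra*, *Pdgfrb*, *Pdgfa*, and *Pdgfc* (percent) against the median reads per cell (log axis) of 5 equal groups of cells ordered by total reads, for each library, with exact 95% binomial intervals. *Pdgfra* in XN4 goes from 30.8% to 78.4% and stays far above XN1 and CN4 at like numbers of reads, and *Pdgfa* is highest in XN1. The libraries differ in reads per captured gene, so equal reads are not equal capture.

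As deeper cells capture more genes, cells with both members of a pair were counted against the number expected from their fractions within 20 strata of total reads. In XN4, 1732 cells, or 19.8%, had both receptors, where 1699 were expected, a ratio of 1.02 (0.972 to 1.07). The interval includes 1, and 34.9% of XN4 cells had *Pdgfra* without *Pdgfrb* and 11.3% the reverse. For *Pdgfra* and its ligand gene *Pdgfa* the ratio was below 1 in each of the 3 lines with both. The counts were 829 against 945 in XN4 (ratio 0.877, 0.818 to 0.939), 422 against 477 in XN1 (0.885, 0.802 to 0.973), and 86 against 113 in CN4 (0.762, 0.610 to 0.941). Over all genes in at least 5% of cells, the ratios with *Pdgfra* ran from 0.903 to 1.11 in XN4, 0.813 to 1.31 in XN1, and 0.702 to 1.53 in CN4 between the 1st and the 99th percentile. The *Pdgfa* ratio was outside this range in XN4 and inside it in XN1 and CN4. Without the strata the XN4 ratio was 1.06, on the other side of 1. No such deficit was seen for *Pdgfrb* and *Pdgfa* in XN4, at 589 cells against 584 (1.01, 0.928 to 1.09). Among all XN4 cells, 53.7% had a receptor and no ligand, and 12.3% had both a ligand and a receptor. In XN1 and CN4 the arrangement was the reverse, since 30.1% and 31.3% of cells had a ligand and no receptor and 7.20% and 1.66% had a receptor and no ligand.

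*Pdgfc* and *Pdgfa* were captured together in 195 XN1 cells where 199 were expected, in 12 KN1 cells against 13.5, and in 410 CN4 cells against 423, and each of these intervals of the ratio included 1. In XN4 they were together in 18 cells against 10.6, a ratio of 1.70 with an interval of 1.01 to 2.68. In XN1, *Pdgfra* and *Pdgfc* were together in 49 cells where 64.9 were expected (0.755, 0.558 to 0.998), and in CN4 in 40 against 33.4 (1.20, 0.857 to 1.63). *Pdgfra* and *Cspg4*, both markers of oligodendrocyte precursors, were together in 2 CN4 cells where 3.02 were expected, too few to tell a ratio from 1. In XN4, *Pdgfa* and *Pdgfb* were together in 16 cells against 7.02 (2.28, 1.30 to 3.70).

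The few CN4 cells with receptors were not spread evenly over the line. *Pdgfra* and *Pdgfrb* were captured together in 17 CN4 cells where 1.21 were expected, a ratio of 14.1 (8.20 to 22.5). *Pdgfra* was captured with *Sox10*, a transcription factor of the oligodendrocyte lineage and neural crest, in 32 cells against 7.65 (4.18, 2.86 to 5.90). It was also captured with some genes of fibroblasts and mesenchyme, as with *Postn* in 32 cells against 1.90 (16.9, 11.5 to 23.8), with *Lum* in 33 against 2.11, with *Twist1* in 30 against 2.44, and with *Col1a1* in 46 against 6.80. Not all 13 genes of that list were alike in this. The 2 of them captured in at least 10% of CN4 cells had ratios of at most 2.19. That was the ratio of *Myof*, ranked 5 among all genes in at least 5% of CN4 cells. With *Olig2*, captured in most CN4 cells, *Pdgfra* was found in 306 cells against 344 (0.889, 0.792 to 0.995).

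For a count chosen after these values were seen, cells were divided by reads of *Sox10* and by reads of at least 2 of 6 mesenchymal genes (*Col1a1*, *Col3a1*, *Dcn*, *Lum*, *Postn*, and *Twist1*), and 0 of 18157 CN4 cells had both, where 1.99 were expected within the strata, too few to tell the sets apart from independent ones. The 6 genes were picked for their capture with *Pdgfra*, so the *Pdgfra* fractions of the mesenchymal-gene cells are a description that the choice fixed in direction. Of the 395 cells with *Pdgfra*, 32 had *Sox10*, 40 had the mesenchymal genes, and 323 had neither. All 17 cells with both receptors were among the 40. *Pdgfra* was captured in 8.56% of the 374 *Sox10* cells (5.93% to 11.9%) in 39.2% of the 102 mesenchymal-gene cells, and in 1.83% of the remaining cells. *Pdgfrb* was captured in 32.4% of the mesenchymal-gene cells (23.4% to 42.3%), in 0 of the 374 *Sox10* cells, which allows a share of up to 0.802%, and in 0.0792% of the remaining cells.

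The 40 *Pdgfra* cells with mesenchymal genes had *Olig2* in 22.5% and *Sox2* in 20% of cells, while the 32 with *Sox10* had *Olig2* in 96.9% and *Sox2* in 75%. The 323 other *Pdgfra* cells, with *Olig2* in 82.4%, had 1.45 *Pdgfra* reads per cell on average, against 3.68 in the mesenchymal-gene cells and 2.66 in the *Sox10* cells. Of the 102 mesenchymal-gene cells, 1 shared its cell index with an XN4 cell, as did 169 of all CN4 cells, and mixing of cells or RNA between cultures or libraries was not tested otherwise. *Cspg4* was captured in 2.67% of the *Sox10* cells (1.29% to 4.86%), in 0 of the 102 mesenchymal-gene cells, which allows a share of up to 2.94%, and in 0.696% of the remaining cells. With *Lhfpl3*, a gene of oligodendrocyte precursors, *Cspg4* was found in 61 cells where 32.1 were expected. *Pdgfc* was captured in fewer *Sox10* cells than expected, 11 against 23.9 (0.459, 0.229 to 0.822).

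**Figure D4:**
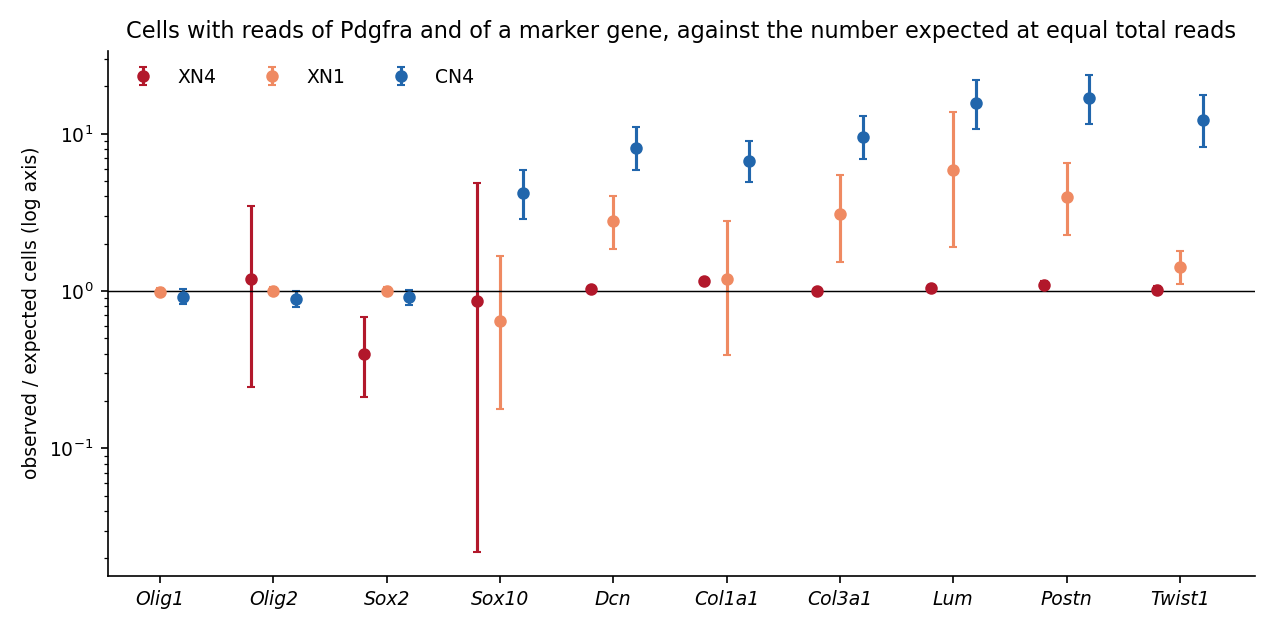
Observed over expected number of cells with reads of both *Pdgfra* and a marker gene (log axis) within strata of total reads in XN4, XN1, and CN4, with 95% Poisson intervals on the observed count. The line at 1 is the number expected, CN4 points for *Sox10* and the 6 mesenchymal genes lie between 4.18 and 16.9, and XN4 points for the mesenchymal genes lie near 1. Pairs with no cell are not drawn.

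In XN1, *Pdgfra* was found in 1487 cells. *Olig2* was captured with *Pdgfra* in 1310 cells where 1306 were expected (1.00, 0.949 to 1.06), and *Sox2* in 980 against 976. *Sox10* was found in 61 XN1 cells, 4 of which had *Pdgfra*, where 6.16 were expected. At least 2 of the 6 mesenchymal genes were found in 17 XN1 cells, 10 of which (58.8%, 32.9% to 81.6%) had *Pdgfra*, compared with 10.2% of the other XN1 cells (9.74% to 10.7%). *Pdgfra* was thus more frequent in the mesenchymal-gene cells of XN1 as in those of CN4, but XN1 had few such cells. Neither *Sox10* nor at least 2 of these genes were found in 99.1% of the *Pdgfra* cells of XN1 and 81.8% of those of CN4.

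Here and below, genes captured most or least often with a member are those with the highest or lowest ratio to the number expected. Within XN4, the genes most often captured with each receptor were named by rank among 10133 genes that 5% or more of the cells held. For *Pdgfra* they were *Capn6* (742 cells against 544, ratio 1.36, 1.27 to 1.47), *Mc2r*, *Clec3b*, *Adh1*, and *Kera*, with ratios of 1.21 to 1.24 for the last 4. *Kera* encodes the keratan sulfate proteoglycan keratocan. For *Pdgfrb* they were *Frem1*, *Olfml2a*, *Ndnf*, *Crispld1*, and *Fmo2*, with ratios from 1.34 to 1.27. The median ratio over all of these genes was 1.01 for both receptors. At the other end, *Pdgfra* was least often captured with *Epha5*, an ephrin receptor (247 cells against 440, ratio 0.561, 0.493 to 0.636), *Basp1*, a growth cone protein (0.587), and *Meis2*, a homeodomain factor (0.613).

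These 3 genes were picked for their low capture with *Pdgfra*, so only the other members say anything further of the cells that held them, in a count chosen after these values were seen. *Pdgfrb* was captured with *Epha5* in 315 cells against 258 (ratio 1.22, 1.09 to 1.36), with *Basp1* in 337 against 299 (1.13, 1.01 to 1.25), and with *Meis2* in 317 against 265 (1.20, 1.07 to 1.34). For *Pdgfa* the ratios were 1.27 (1.09 to 1.47), 1.59 (1.41 to 1.78), and 1.46 (1.27 to 1.67). These strata match total reads, not the number of genes per cell. Between the 1st and the 99th percentile of all genes the ratios ran from 0.856 to 1.147 for *Pdgfrb* and from 0.791 to 1.34 for *Pdgfa*, so that of *Pdgfrb* with *Basp1* and that of *Pdgfa* with *Epha5* lay within the spread of all genes. Of the 49 XN4 cells with *Sox2*, 13 had *Pdgfra* where 32.4 were expected and 25 had *Pdgfa* where 12.0 were expected. Other neural genes were not alike in this, as the ratios with *Nes* were 0.937 (0.855 to 1.02) for *Pdgfra* and 1.32 (1.17 to 1.49) for *Pdgfa*, and those with *Ptprz1* were 0.607 (0.476 to 0.764) and 1.02 (0.739 to 1.38).

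The same ranking was made for the other members in the line with their highest thinned fraction. For *Pdgfa* in XN1 the genes were *Aatk*, *Adcy1*, *Sipa1l2*, *Sh2b3*, and *Ninj1*, with ratios of 1.19 to 1.21. For *Pdgfc* in CN4 they were *B3galt5* (137 cells against 89.8, ratio 1.53, 1.28 to 1.80), *Fam167a*, *Galnt17*, *Foxa2*, and *Opcml*, where *Foxa2* is a transcription factor of the floor plate and endoderm. For *Cspg4* in CN4 they were *Kcnd2* (28 against 11.8, ratio 2.37, 1.57 to 3.42), *Dll3*, *Asxl3*, *Vxn*, and *Serp2*. *Dll3* encodes a Notch ligand. *Pdgfb* was captured in too few cells to rank genes.

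Dividing cells were taken as cells with reads of *Mki67* or *Top2a* after thinning to 3200 reads. In XN4, *Pdgfra* was captured in 35.0% of 1061 such cells and 41.2% of 2325 others, a ratio of 0.848 (0.750 to 0.957), and *Pdgfrb* in 13.1% and 17.3%, a ratio of 0.758 (0.620 to 0.921). Without thinning, when dividing cells are also the deeper ones, the ratios were 1.23 and 1.20. Over all XN4 cells in strata of total reads, *Pdgfra* was captured with *Mki67* in 1487 cells against 1537 (0.967, 0.919 to 1.02), an interval that includes 1, and *Pdgfrb* in 828 against 930.4 (0.890, 0.830 to 0.953). In XN1, *Pdgfra* was captured in 8.95% of 1095 dividing and 6.97% of 2036 other cells, a ratio of 1.28 with an interval of 0.982 to 1.67 that includes 1. This ratio was 1.54 without thinning, and 1.43 where dividing cells needed reads of both genes. Over all cells, *Mki67* was captured in 36.0% of the 1487 XN1 cells with *Pdgfra* and in 26.1% of all XN1 cells. Their medians were 6249 and 5981.5 reads per cell. *Pdgfa* was captured in 20.0% of dividing and 23.9% of other XN1 cells (0.836, 0.710 to 0.983), in 13.3% and 16.1% in CN4 (0.825, 0.681 to 1.001), and in 7.76% and 6.41% in KN1 (1.21, 0.931 to 1.57). Without thinning, the *Pdgfa* ratios in XN1 and CN4 were above 1 as well, at 1.03 and 1.145.

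Genes that process or bind PDGFs, taken from a list of 11, were called only as higher in XN4 in its pairs with XN1 and CN4. Of the 10 tested between XN4 and XN1, 3 were at least 4-fold higher in XN4 and 0 were lower, where 9.5% and 8.16% of all genes tested were. As 2 of these 3 (*Plau* and *Itgb3*) passed the filter through XN4 alone, the count is not read against that background. The list had a median log2 ratio of 0.82 against 0.13 over all genes tested. *Plau*, the urokinase-type plasminogen activator, had 148 RPM in XN4 and 1.66 in XN1, a ratio of 89.2 (63.1 to 131). *Itgb3*, an integrin chain, had 16.3 in XN4 and 0.726 in XN1, and *Thbs1*, which encodes a thrombospondin, had 381 and 7.67, against 4.50 in KN1, where the ratio was 84.7. Between XN4 and CN4, 5 of 10 were higher in XN4 and 0 were lower, where 10.2% and 8.85% of all genes tested were. *Itgb3*, among these 5, passed the filter through XN4 alone, so this count is not read against that background either. Between XN1 and CN4, 0 of 9 were called, which is not told apart from the background of 7.16%. *Lrp1*, an endocytic receptor that associates with PDGFRβ, had 400.3 RPM in XN4 and 21.7 in KN1, a ratio of 18.5. *Plat*, which encodes the tissue plasminogen activator that cuts PDGF-C, was not called in any pair, at 444, 425, 124.99, and 459.8 RPM in XN4, XN1, KN1, and CN4.

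Genes that carry the signal from the receptors, a list of 20 adaptors and enzymes, were present in every line, in at least 1% of cells for all 20. Of these, only *Shc1*, an adaptor, was at least 4-fold higher in XN4 than in XN1, KN1, and CN4, at 476 RPM against 114, 39.5, and 54.7. Over all genes tested, 9.5% were called as higher in XN4 than in XN1 and 10.2% as higher than in CN4, so a share of 1 in 20 is no result about the list. *Fyn*, a kinase of the Src family, was called as lower in XN4 than in KN1 and CN4, at 106 against 544.8 and 553, and the median log2 ratio of the list was −0.05 between XN4 and XN1 and −0.06 between XN4 and CN4, against 0.13 and 0.04 over all genes tested. Among 13 related receptors and ligands, not all of which passed the filter in both lines of a pair, 1 was called as higher in XN4 and 2 as lower, of 8 tested against XN1, where 17.7% of all genes tested were called in either direction. Against CN4, 2 were called as higher and 3 as lower, of 9 tested, where 19% of all genes were called. *Kit* was captured in 4.93% of CN4 cells and in 0.789%, 0.941%, and 0.679% of XN4, XN1, and KN1 cells. *Vegfc*, a lymphatic growth factor, had 46.5 RPM in XN1 and 1.09 in KN1, a ratio of 42.7 (29.7 to 63.6). *Pgf*, the placental growth factor, had 6.17 in XN1 and 0.360 in XN4. The fourth ligand gene, *Pdgfd*, was captured in 17 to 41 cells of each line, and *Pdgfrl*, a receptor-like gene without a kinase, in 7.53% of XN4, 2.98% of XN1, 2.52% of KN1, and 4.60% of CN4 cells.

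Marker lists stood beside the receptors as follows. Of 13 fibroblast and mesenchyme genes, 12 were captured in at least 1% of XN4 cells, and 6, 2, and 7 of the 13 passed this share in XN1, KN1, and CN4. Their summed levels were 8567 RPM in XN4 and 222, 39.7, and 273 in the others. Of 12 mural cell genes, 9 passed 1% of cells in XN4 and 3 in each other line, and the summed levels were 207 RPM in XN4 and 102, 87.5, and 115 in XN1, KN1, and CN4. The genes of this list went both ways between XN4 and XN1. *Abcc9* and *Anpep* were 46.8 and 52.9 times as high in XN4 as in XN1, but *Acta2*, *Mcam*, and *Notch3* had ratios of 0.759, 0.528, and 0.970, and *Rgs5*, a defining gene of pericytes, was captured in 16 XN4 cells (0.183%). Of 12 oligodendrocyte precursor genes besides the members, XN4 had 5 past 1% of cells, XN1 had 8, KN1 had 7, and CN4 had 9. Their summed levels in these lines were 27.8, 3303, 3217, and 3702 RPM. Of 6 endothelial genes, 3 passed 1% in XN4, led by *Emcn* at 64.0% of cells against 2.03% in XN1, while *Kdr* was captured in 13 XN4 cells and *Cldn5* was not listed in any table. By summed levels, the line with the most *Pdgfra* was therefore the lowest of the 4 in the oligodendrocyte precursor list and the highest in the mesenchymal list. Some genes went the other way, as *Thy1* of the mesenchymal list had ratios of 0.00457 and 0.0654 in XN4 over XN1 and CN4. Of the precursor list, *Matn4* and *C1ql1* had ratios of 5.43 and 1.87 in XN4 over CN4, but 0.797 and 0.931 over XN1. *Pcdh15* had ratios of 1.48 over XN1 and 1.28 over CN4, but 0.485 over KN1. The part of either list in the receptor levels was not tested.

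The genes with the pattern over the 4 lines most like that of each member were found by the root mean square difference of log2 levels, with 1 added to RPM and each gene centered, among 13804 genes. A gene not listed in KN1 was taken as 0 there. For *Pdgfra* they were *Lgals3bp* (0.45), *Fcgrt* (0.45), and *Plagl1* (0.49), and for *Pdgfrb* they were *Arhgdib* (0.08), *Oasl2* (0.14), and *Osr1* (0.14). *Osr1* encodes a transcription factor of lateral mesoderm and connective tissue. For *Pdgfa* they were *Tusc3*, *Uxs1*, and *AU040320*, at 0.03 to 0.05, and for *Pdgfc* they were *Faah*, *Klhl32*, and *Bend7*, at 0.12 to 0.17. *Pdgfb* and *Cspg4* were nearest to *Btbd8* and *Nbn*, at 0.03 and 0.02, but their own values rest on few reads, and 4 lines give no test of such likeness.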

How the data were processed

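The deposited read tables of XN4, XN1, and CN4 hold counts of reads per gene and cell, which the authors made with the BD Rhapsody WTA pipeline 1.12.1 on mm10, with reads in introns counted. They are reads, not molecular identifiers. Natural log values of 4 lines, ln(1 + 10000 × reads / total), were deposited as well, made with Seurat 4.3.0 without ribosomal protein and mitochondrial genes. These were turned back into reads, and 100% came out whole within 0.01. A read table of KN1 was not used here. The normalized tables held from 19271688 to 41539513 reads. Genes unlisted in a normalized table were added from the same cells' reads (at most 0.186% of reads), except in KN1. Thinning to 3200 reads left out from 289 to 774 cells per line. Doublets were neither called nor removed here.

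Fractions have Clopper-Pearson intervals and levels Poisson intervals, computed in Python 3.11.15 with SciPy 1.17.1. Ratios of levels have exact conditional intervals. With 1 library per line there were no tests. The procedures were tested on simulated data. Named genes were all 6 members, the 6 pathway genes with the largest ratios between lines, the 3 most like genes, and the 5 genes most often captured with each member in its highest line. Genes named beyond these, and the groups of CN4 and XN1 cells, were chosen after their values were seen. The members and lists were chosen with earlier results of these data known. Alternatives are given in the closing section.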

Additional observations from a re-analysis of the deposited data

How the results depend on the processing

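No paired analysis was possible because each line was 1 library. Of 98 alternative values for 24 main results, 75 stayed within the counting interval (or, for counts of called members, within 1.5 times the main count), and 23 did not. The *Pdgfra* ratio of XN4 over XN1 was 6.49 with all reads of all cells and 5.12 for thinned fractions. The *Pdgfa* ratio of XN1 over XN4 was 2.47 as a mean over cells, 2.38 without the 5% of cells with the most reads, and 2.76 for thinned fractions. Thinned fractions gave 11.5 for *Pdgfc* in XN1 over XN4 and 0.998 for *Pdgfc* in KN1 over XN1, where the mean over cells gave 2.19. Members called in XN4 against KN1 numbered 0 of 1 over genes in 5% of cells, where 16.4% of all genes were called, and 2 of 3 with no filter (22.8%), as *Pdgfb* was then tested. With no filter, XN1 against KN1 gave 1 of 3 (22.7%), XN1 against CN4 gave 2 of 6 (8.17%), and KN1 against CN4 gave 1 of 3 (19.2%). A 2-fold limit gave 1 of 2 for XN1 against KN1, where 47.8% of all genes were called. Without strata, the ratios of capture together were 1.17 for *Pdgfra* and *Pdgfrb* and 1.06 for *Pdgfra* and *Pdgfa* in XN4, which turns the latter, and 1.115 for *Pdgfa* and *Pdgfc* in CN4. At least 2 reads gave 0.753 for *Pdgfra* and *Pdgfa* in XN1 and 0 for *Pdgfra* and *Cspg4* in CN4. Without thinning, the ratio of dividing to other cells was 1.23 for *Pdgfra* and 1.20 for *Pdgfrb* in XN4, and 1.03 in XN1 and 1.145 in CN4 for *Pdgfa*, which turns all 4. Leaving CN4 cells with *Col1a1* or *Col3a1* out, an alternative chosen after seeing the data, gave a *Pdgfra* fraction of 1.93% and a *Pdgfrb* fraction of 0.0789%. *Pdgfb*, *Cspg4*, and *Pdgfc* in XN4 rest on 27, 30, and 43 cells, which sets the width of their counting intervals.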

Other observations

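The genes most and least often captured with *Pdgfra* in XN1 and CN4 were ranked as well, after the values of XN4 were seen. In XN1 the 5 genes with the largest ratios were *Unc5c*, a netrin receptor (255 cells where 141 were expected, ratio 1.80, 1.59 to 2.04), *Mme*, which encodes neprilysin (426 against 241), *Clmn*, *Eln*, which encodes elastin, and *Colec12*. The lowest in XN1 were *Trib3* (85 cells against 156, ratio 0.546, 0.436 to 0.675) and *Chac1* (0.629), both genes of the stress response to unfolded proteins or lack of amino acids. In CN4 the 5 highest were *Efnb2*, an ephrin (74 cells against 31.0, ratio 2.39, 1.87 to 2.996), *Loxl2*, a lysyl oxidase of matrix (2.35), *Cgnl1*, *Cped1*, and *Myof*.

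In XN4, *Pdgfa* had its highest ratios with *Fas*, a death receptor (257 cells against 131, ratio 1.95, 1.72 to 2.21), *Gm15987*, *Ptprn*, *Ahnak2*, and *Ptgs2*, which encodes cyclooxygenase 2 (1.77). Its lowest ratios were with *Trpm5* (0.570), *Ntf3*, which encodes neurotrophin 3 (0.602), and *Colgalt2* (0.608). *Gm15987* was also among the 5 genes least often captured with *Pdgfra* in XN4, at 291 cells against 378 (0.769). *Aatk* was first for *Pdgfa* in both XN1 (1.21, 1.08 to 1.34) and CN4 (1.31, 1.18 to 1.45).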
